A study of Mus musculus with 18 samples.

Results

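The core circadian clock genes described here are Per1, Per2, Per3, Arntl (also called Bmal1), Cry1, Cry2, Nr1d1, Nr1d2, Dbp and Bhlhe40. They were chosen by name, from their known place in the clock and with earlier results of these data known. They are the 10 rows of a gene table of 48795 rows whose Ensembl identifiers map to those symbols. Their level was read in C2C12 myotubes, multinucleated muscle fibres formed in culture when the mouse myoblast line C2C12 is kept in 2% horse serum, here for 5 days. Poly-A RNA was sequenced from 18 libraries in 6 groups of 3. Vehicle cells were kept in 0.1% DMSO for 36 h. In 2 groups ginsenoside Rc, a ginseng saponin, was given at a dose of 10 µM or 20 µM over the same 36 h. In the 3 remaining groups 200 µM dexamethasone, a synthetic glucocorticoid, was given for 24 h, and a 12 h pre-treatment came before it, either vehicle or ginsenoside Rc at one of these doses (10 µM, 20 µM). Whether the ginsenoside stayed in the medium during dexamethasone is not given in the sources used here. The design asks what the glucocorticoid does in myotubes and whether ginsenoside Rc changes it.

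The circadian clock of a cell is a transcriptional loop. BMAL1, the product of Arntl, pairs with CLOCK and binds E-box sequences to switch on the Per and Cry genes, whose proteins return to the nucleus and repress that pair. In a second loop the same pair drives Nr1d1 and Nr1d2, which encode the REV-ERB nuclear receptors, and these repress Arntl through ROR response elements. DBP is an output activator that binds D-boxes, and BHLHE40, or DEC1, is a repressor that competes at E-boxes. In skeletal muscle the clock is known for timing genes of fuel use, and glucocorticoids are a known signal that sets clocks in peripheral tissues and cultured cells. All libraries were taken at 36 h, a single time, so a change in the level of a rhythmic gene and a change in the phase of its rhythm cannot be told apart here.

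All 10 genes passed the filter on low counts, with 380 to 11591 expected counts per library. Library totals were 32350889 to 45388609 expected counts. The labels do not say whether replicates are separate cultures, so the spread that p-values are measured against may be technical. In bulk RNA fewer cells of a type and less RNA per cell cannot be told apart. The first principal component held 70.9% of the variance and separated the 9 libraries with dexamethasone from the 9 without. Replicate 2 of the 20 µM ginsenoside group stood apart on the second component (5.37% of the variance), and 2.79% of its counts were mitochondrial, against 1.26% to 1.91% elsewhere. Among the 9 libraries without dexamethasone this library was the highest for 5 of the 10 clock genes (Per1, Per2, Arntl, Nr1d1 and Bhlhe40) and the lowest for 4 (Per3, Cry1, Cry2 and Dbp), so the dexamethasone changes at 20 µM are given with and without it. The dexamethasone label held in all libraries: Fkbp5 and Tsc22d3, known glucocorticoid receptor targets, rose by log2 4.17 and 3.26 against vehicle.

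The sequences around the members' start sites show which clock elements lie close to them. RefSeq promoter windows of 250 bases before to 50 after a start (GRCm38.p6) were matched by symbol for 8 of the 10 genes, not for Per2 and Bhlhe40. They gave 10 windows, with 2 starts each for Per1 and Arntl, called first and second in the order of these windows. Both Per1 windows lie inside the annotated gene, which begins at 69095217, and that upstream end was not searched. Both strands were searched for the E-box CACGTG, the D-box TTATGTAA or TTATGCAA, the core of the ROR element TAGGTCA or TGGGTCA, the cAMP element TGACGTCA and the glucocorticoid element (GNACA, any 3 bases, then TGTNC). The stretches of the 4 windows with a match are shown, 5′ to 3′ on the strand of the gene, because they hold elements through which the clock is known to act. Capitals mark the matches.
Per1, first start, chr11:69098699-69098947, plus strand: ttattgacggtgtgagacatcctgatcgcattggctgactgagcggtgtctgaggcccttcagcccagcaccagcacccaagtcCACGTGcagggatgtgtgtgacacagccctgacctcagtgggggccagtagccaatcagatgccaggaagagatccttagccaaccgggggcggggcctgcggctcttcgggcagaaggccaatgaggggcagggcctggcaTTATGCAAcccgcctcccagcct
Cry1, chr10:85185065-85185304, minus strand: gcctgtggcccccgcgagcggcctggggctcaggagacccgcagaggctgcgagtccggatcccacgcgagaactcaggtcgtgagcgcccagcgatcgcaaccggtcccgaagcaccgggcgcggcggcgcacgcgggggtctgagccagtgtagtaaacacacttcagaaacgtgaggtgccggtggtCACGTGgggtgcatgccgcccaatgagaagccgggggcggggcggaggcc
Per3, chr4:151044666-151044915, minus strand: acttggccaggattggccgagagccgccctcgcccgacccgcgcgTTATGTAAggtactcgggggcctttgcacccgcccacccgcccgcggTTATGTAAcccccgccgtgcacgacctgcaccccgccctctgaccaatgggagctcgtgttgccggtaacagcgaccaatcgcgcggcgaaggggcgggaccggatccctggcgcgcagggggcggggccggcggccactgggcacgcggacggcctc
Arntl, second start, chr7:113207529-113207558, plus strand: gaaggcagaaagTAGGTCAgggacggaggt
The Per1 window held 1 E-box, 166 bases upstream of the start, and 1 D-box, 24 bases upstream. Cry1 held 1 E-box, 60 bases upstream. Per3 held 2 D-boxes of the same letters, 205 and 158 bases upstream. The ROR element core of Arntl began at base 31 after its second start. The second Per1 start, the first Arntl start and the windows of Cry2, Nr1d1, Nr1d2 and Dbp held none of the 5 motifs, and no member's window held the cAMP or glucocorticoid element. Of 32851 windows of the same length, 7.15% held the E-box, 1.66% the D-box, 6.45% the ROR element core, 1.79% the cAMP element and 0.475% the glucocorticoid element. A match is a description of letters and no evidence of binding.

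Against vehicle, dexamethasone changed 9 of the 10 clock genes: Per1, Per2, Cry1, Cry2 and Nr1d2 rose, and Arntl, Nr1d1, Per3 and Dbp fell. The sizes were unequal, from a 3.77-fold rise of Per1 to a log2 change of 0.20 for Nr1d2. Of all 15436 genes tested, 43.8% passed the same test (adjusted p below 0.05), 20.6% higher and 23.2% lower, so a call alone does not set a gene apart from the rest of the transcriptome. The median log2 change of the 10 genes was 0.03 and that of all genes was -0.01. The 3 libraries with dexamethasone lay outside the range of the 3 vehicle libraries for 9 of the 10 genes, against 59.3% of all genes. Levels below are in CPM, counts scaled to the library total with TMM factors, and changes are log2 ratios with their standard error, tested with edgeR's quasi-likelihood test and adjusted over all genes.

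**Figure D1:**
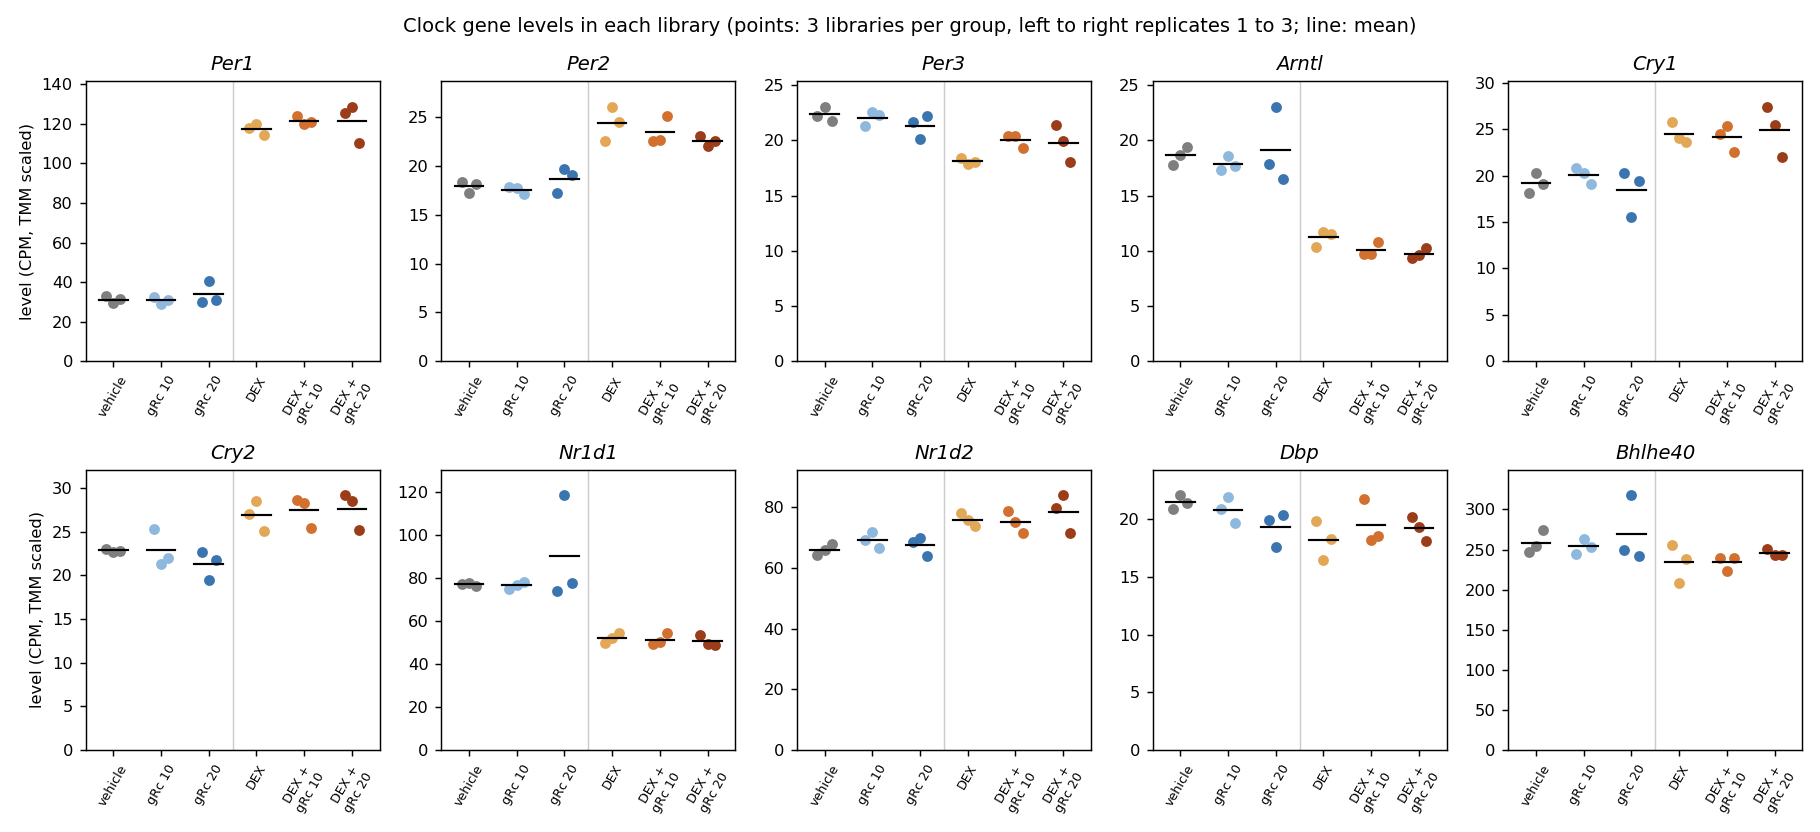
Level of each clock gene (CPM, linear axes from 0) in each of the 18 libraries, by group, with the group mean as a line; DEX is dexamethasone and gRc ginsenoside Rc in µM. Per1 sits at 29.1 to 40.8 CPM in the 9 libraries without dexamethasone and at 110.4 to 129 in the 9 with it, while the point of replicate 2 at 20 µM stands above the other libraries without dexamethasone for Per1, Per2, Arntl, Nr1d1 and Bhlhe40.

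Arntl (ENSMUSG00000055116, chromosome 7, 113207465 to 113314126, plus strand) encodes the activator of the loop, carries the core of a ROR element just after its second start, and fell. Its 3 vehicle libraries read 17.8, 18.7 and 19.4 CPM and its 3 dexamethasone libraries 10.4, 11.7 and 11.5, with no overlap. Group means stood at 18.6 ± 0.795 and 11.2 ± 0.727 CPM (SD, n = 3). The log2 change was -0.73 ± 0.10 (adjusted p = 5.6e-06), or 0.602 times the vehicle level. With 10 µM ginsenoside Rc the libraries read 17.3, 18.6 and 17.7 CPM without and 9.68, 9.66 and 10.8 with dexamethasone, and with 20 µM they read 17.9, 23.1 and 16.5 without and 9.30, 9.63 and 10.2 with it. Every library with dexamethasone was below every library without, at 9.30 to 11.7 against 16.5 to 23.1 CPM. In the order of group means the 3 dexamethasone groups came lowest, overlapping from one to the next, and the 3 others came highest, also overlapping. The change was -0.83 ± 0.10 at 10 µM (adjusted p = 1.4e-06) and -0.98 ± 0.10 at 20 µM (adjusted p = 1.6e-07), which was -0.82 without the library that stands apart.

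Per1 (ENSMUSG00000020893, chromosome 11, 69095217 to 69109960, plus strand) encodes a repressor of the loop whose gene is known to respond quickly to outside signals, and it had the largest change of the 10. The first of its 2 start windows, which lies inside the annotated gene, carries the E-box and the D-box printed with the start sites. The vehicle libraries read 32.8, 29.4 and 31.3 CPM and the dexamethasone libraries 118, 120.1 and 115. The rise from 31.2 ± 1.71 to 118 ± 2.74 CPM (SD, n = 3) equals a log2 ratio of 1.92 ± 0.09 (95% interval 1.73 to 2.10, adjusted p = 7.1e-12). The groups were separated by a wide gap, and no library lay between them. At 10 µM ginsenoside Rc the libraries read 32.3, 29.1 and 31.0 CPM without dexamethasone and 124, 120.1 and 121 with it (log2 1.98 ± 0.09, adjusted p = 4.4e-12). At 20 µM they read 30.0, 40.8 and 31.2 without and 126, 129 and 110.4 with it (log2 1.84 ± 0.09, adjusted p = 1.0e-11). The high reading among the libraries without dexamethasone was the 20 µM replicate that stands apart, and without it the change at 20 µM was 1.99.

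Per2 (ENSMUSG00000055866, chromosome 1, 91415982 to 91459324, minus strand) encodes the repressor that pairs with the CRY proteins alongside PER1, and it rose less. It read 18.4, 17.3 and 18.1 CPM with vehicle and 22.5, 26.1 and 24.5 with dexamethasone, a log2 change of 0.44 ± 0.07 (adjusted p = 2.0e-05). The change was 0.42 ± 0.07 at 10 µM ginsenoside Rc (adjusted p = 4.1e-05) and 0.28 ± 0.07 at 20 µM (adjusted p = 0.0019), or 0.32 without the library that stands apart. Over all groups Per2 lay at 17.2 to 19.7 CPM without dexamethasone and at 22.0 to 26.1 CPM with it, so the 9 and 9 libraries did not overlap. Neighbouring groups within each set of 3 did overlap.

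Per3 (ENSMUSG00000028957, chromosome 4, 151003652 to 151044665, minus strand), the family member that the rhythm is known to depend on least, moved the other way. It read 22.2, 23.1 and 21.8 CPM with vehicle and 18.4, 17.9 and 18.1 with dexamethasone, a log2 change of -0.30 ± 0.06 (adjusted p = 5.4e-04) with no overlap. With ginsenoside Rc the difference was smaller and was not called: -0.14 ± 0.06 at 10 µM (adjusted p = 0.075) and -0.11 ± 0.06 at 20 µM (adjusted p = 0.16), or -0.15 (adjusted p = 0.053) without the library that stands apart. At 10 µM the call depended on the fit, since it passed without composition scaling (-0.21, adjusted p = 0.015), with only the groups compared (adjusted p = 0.027) and in a fit lacking the library that stands apart (adjusted p = 0.041). At 20 µM it passed without replicate 1 of the dexamethasone and ginsenoside group (-0.17, adjusted p = 0.041). Each group overlapped its neighbour in the order of levels, from dexamethasone alone at 18.1 ± 0.297 CPM to vehicle at 22.3 ± 0.658 (SD, n = 3). Per3 lies inside Camta1 on the same strand, over 41014 bp. Camta1 differed by 0.01.

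The 3 Per genes differed in size and direction of change, and with them the make-up of the family, which is given here as a description with no test of its own. Levels were divided by the length of all annotated exons of a gene. That length may differ from that of the transcripts present, so genes compare only roughly on this scale. The sum of the 3 was 10.9 ± 0.352 CPM per kb with vehicle and 26.9 ± 0.640 with dexamethasone (SD, n = 3). Per1 held 50.7% ± 1.16 of that sum with vehicle and 77.5% ± 0.749 with dexamethasone. The share of Per2 was 28.0% ± 0.300 and then 15.4% ± 0.915, although its own level rose, and that of Per3 was 21.3% ± 1.21 and then 7.01% ± 0.250. The Per1 share with dexamethasone was 78.0% ± 0.680 after 10 µM and 78.5% ± 1.14 after 20 µM ginsenoside Rc.

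**Figure D2:**
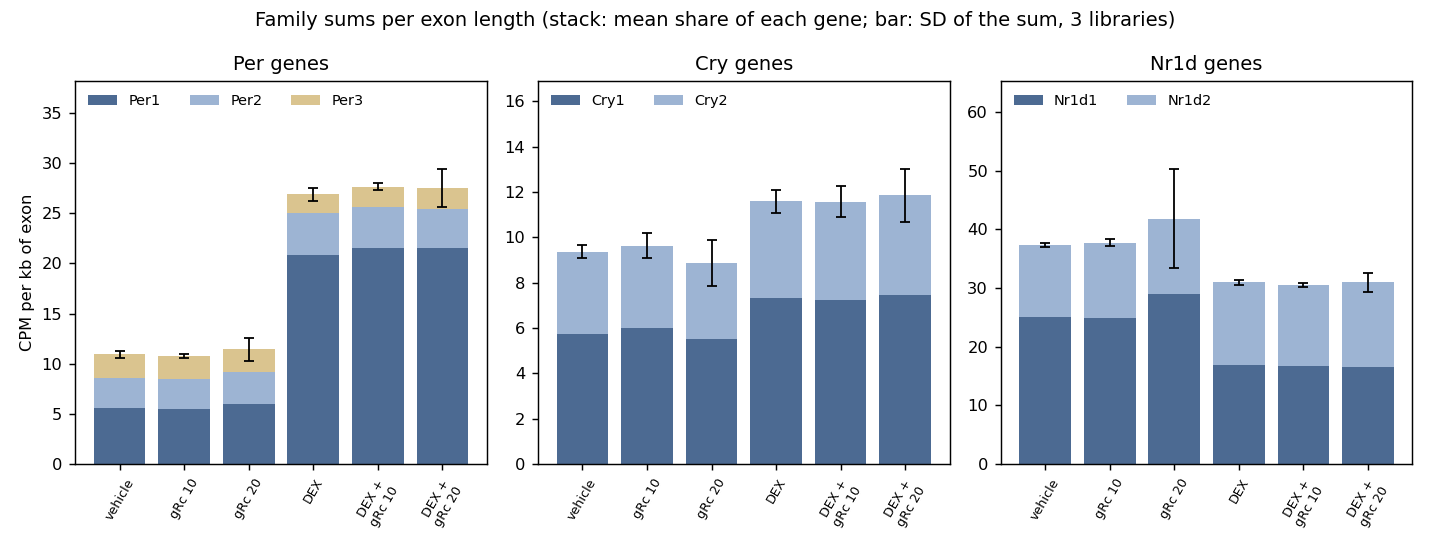
Summed level of the Per, Cry and Nr1d genes per kilobase of exon (CPM per kb, axes from 0) in the 6 groups; stacked colours are the mean share of each gene and error bars the SD of the sum over 3 libraries. Per1 fills 77.5% of the Per bar with dexamethasone against 50.7% with vehicle, the Cry bars keep nearly the same proportions, and Nr1d1 gives up part of the Nr1d bar; the wide error bar of Nr1d at 20 µM without dexamethasone includes the library with 119 CPM of Nr1d1.

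The cryptochrome genes Cry1 and Cry2 encode the partners of the PER proteins and the direct repressors of the CLOCK and BMAL1 pair, and both rose moderately. Cry1 (ENSMUSG00000020038, chromosome 10, 85131700 to 85185064, minus strand) read 18.2, 20.3 and 19.1 CPM with vehicle and 25.8, 24.0 and 23.6 with dexamethasone, a log2 change of 0.35 ± 0.09 (adjusted p = 0.004). Its 9 libraries with dexamethasone, at 22.0 to 27.4 CPM, lay above the 9 without, at 15.6 to 20.8. The change was 0.27 ± 0.09 at 10 µM (adjusted p = 0.024) and 0.44 ± 0.09 at 20 µM (adjusted p = 6.1e-04), or 0.33 without the library that stands apart. The call at 10 µM was lost without composition scaling (adjusted p = 0.12) and without any 1 of 4 libraries: replicate 2 or 3 of 10 µM alone, or replicate 1 or 2 of 10 µM with dexamethasone (adjusted p from 0.051 to 0.093).

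Cry2 (ENSMUSG00000068742, chromosome 2, 92403646 to 92434043, minus strand) read 23.1, 22.7 and 22.8 CPM with vehicle and 27.1, 28.6 and 25.1 with dexamethasone. Its log2 change was 0.23 ± 0.08 (adjusted p = 0.021), then 0.26 ± 0.08 at 10 µM (adjusted p = 0.01) and 0.38 ± 0.08 at 20 µM (adjusted p = 5.9e-04), or 0.32 without the library that stands apart. The call against vehicle was lost without composition scaling (0.17, adjusted p = 0.12) and without vehicle replicate 2, dexamethasone replicate 1 or dexamethasone replicate 2 (adjusted p = 0.058, 0.052 and 0.098). The call at 10 µM was lost without composition scaling (adjusted p = 0.067) and without replicate 2 of 10 µM alone (adjusted p = 0.059). Over all groups Cry2 lay at 25.1 to 29.2 CPM with dexamethasone and 19.4 to 25.3 CPM without, so the 9 and 9 libraries just overlapped. Together the pair summed to 9.36 ± 0.294 CPM per kb with vehicle and 11.6 ± 0.511 with dexamethasone, and the share of Cry1 was 61.3% ± 1.5 and 63.2% ± 1.61 (SD, n = 3).

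The REV-ERB genes split. Nr1d1 (ENSMUSG00000020889, chromosome 11, 98767932 to 98775333, minus strand), which encodes REV-ERB alpha, the repressor of Arntl, fell along with Arntl itself. It read 77.1, 78.0 and 76.4 CPM with vehicle and 49.6, 52.2 and 54.5 with dexamethasone, from 77.2 ± 0.794 to 52.1 ± 2.47 CPM (SD, n = 3). The log2 change was -0.57 ± 0.12 (adjusted p = 9.1e-04), and no library of one group reached the other. At 10 µM ginsenoside Rc it read 75.1, 77.0 and 78.1 without and 49.4, 50.2 and 54.4 with dexamethasone, a change of -0.58 ± 0.12 (adjusted p = 7.1e-04). At 20 µM it read 73.8, 119 and 77.9 without and 53.4, 49.4 and 49.0 with dexamethasone, a change of -0.83 ± 0.12 (adjusted p = 1.9e-05). The middle reading of the first 3 is the library that stands apart, and without it the change was -0.58, close to that at the other doses. Nr1d1 shares 1075 bp with Thra on the opposite strand, and the strand setting of the counting is not given in the sources used here. Thra differed in the opposite direction, 0.29 (adjusted p = 1.3e-05).

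Nr1d2 (ENSMUSG00000021775, chromosome 14, 18204054 to 18239127, minus strand), which encodes REV-ERB beta, rose slightly. It read 64.2, 65.8 and 68.1 CPM with vehicle and 78.1, 75.9 and 73.9 with dexamethasone, a log2 change of 0.20 ± 0.06 (adjusted p = 0.0084) that lost its call without composition scaling (0.14, adjusted p = 0.064). At 10 µM the difference of 0.12 ± 0.06 was not called (adjusted p = 0.11), except with only the groups compared (adjusted p = 0.04). At 20 µM it was 0.22 ± 0.06 (adjusted p = 0.0046), or 0.25 without the library that stands apart, and with only the groups compared that call was lost (adjusted p = 0.079). Summed per kilobase, the 2 genes went from 37.3 ± 0.308 to 31.0 ± 0.417 CPM per kb, and the share of Nr1d1 from 67.3% ± 0.796 to 54.6% ± 1.86 (SD, n = 3).

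Dbp (ENSMUSG00000059824, chromosome 7, 45705088 to 45710203, plus strand), the output activator, fell slightly and with little margin. It read 20.9, 22.1 and 21.4 CPM with vehicle and 19.8, 16.5 and 18.3 with dexamethasone, a log2 change of -0.24 ± 0.08 (adjusted p = 0.024). The call was lost without vehicle replicate 2 or 3 or dexamethasone replicate 2 or 3 (adjusted p = 0.079, 0.062, 0.13 and 0.055). At 10 µM and 20 µM ginsenoside Rc the differences were -0.09 ± 0.08 and -0.01 ± 0.08 (adjusted p = 0.39 and 0.95). The second was -0.07 (adjusted p = 0.52) without the library that stands apart. All 6 groups overlapped their neighbour in the order of levels, from 18.2 ± 1.69 CPM with dexamethasone to 21.5 ± 0.602 with vehicle (SD, n = 3). Dbp shares 737 bp with Sphk2 on the opposite strand, which rose by 0.25 (adjusted p = 0.0055).

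Bhlhe40 (ENSMUSG00000030103, chromosome 6, 108660629 to 108666925, plus strand), the E-box repressor DEC1, did not pass the test. It read 247, 254 and 274 CPM with vehicle and 255, 209 and 239 with dexamethasone, and the ranges overlapped. The difference was -0.14 ± 0.09 with a 95% interval of -0.33 to 0.04 (adjusted p = 0.2). It was called without composition scaling (-0.21, adjusted p = 0.035) and in the fit lacking the library that stands apart (adjusted p = 0.038). The differences at 10 µM and 20 µM were -0.12 ± 0.09 and -0.13 ± 0.09 (adjusted p = 0.31 and 0.22), the first of which was called with only the groups compared (adjusted p = 0.028), and the second was 0.01 without the library that stands apart. Genes annotated over 3 members on the other strand had next to no counts: Gm45355 over Arntl and 0610040F04Rik over Bhlhe40 were at 0 in every group, and D930015M05Rik over Cry2 had a group mean of at most 0.116 CPM. Per kilobase of annotated exon Bhlhe40 had the highest level of the 10 with vehicle, 55.0 ± 3.01 CPM per kb. Nr1d1 followed at 25.1 ± 0.258 and Nr1d2 at 12.2 ± 0.360. Per3 had the lowest, 2.33 ± 0.0685, next to Arntl at 2.48 ± 0.106 (SD, n = 3).

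At each dose of ginsenoside Rc, dexamethasone was compared with the same dose alone, in separate libraries. The dose alone was given over 36 h, while the ginsenoside before dexamethasone was given for 12 h and may not have stayed. So these comparisons, and the interactions built on them, may also differ in ginsenoside exposure. At 10 µM 6 of the 10 clock genes were called, 4 higher (Per1, Per2, Cry1 and Cry2) and 2 lower (Arntl and Nr1d1), against 44.2% of all genes called, 21.1% higher and 23% lower. The libraries did not overlap for 8 of the 10 genes, against 59.7% of all genes. At 20 µM 7 were called, the same 6 and Nr1d2 (5 higher and 2 lower), against 48.9% of all genes, 23.5% higher and 25.4% lower, and the libraries did not overlap for 7, against 50.1%. With replicate 2 of 20 µM left out the count at 20 µM was again 7, 5 higher and 2 lower. Across all 18 libraries, the 9 with dexamethasone did not overlap the 9 without for 5 of the 10 genes (Per1, Per2, Arntl, Cry1 and Nr1d1), against 32.6% of all genes. In the order of the 6 group means, the neighbours with the same dexamethasone status that did not overlap were in Per1, for which dexamethasone alone lay just below 10 µM with dexamethasone, in Cry2, for which 20 µM alone lay below vehicle, and in Bhlhe40, for which 10 µM lay below 20 µM with dexamethasone.

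**Figure D3:**
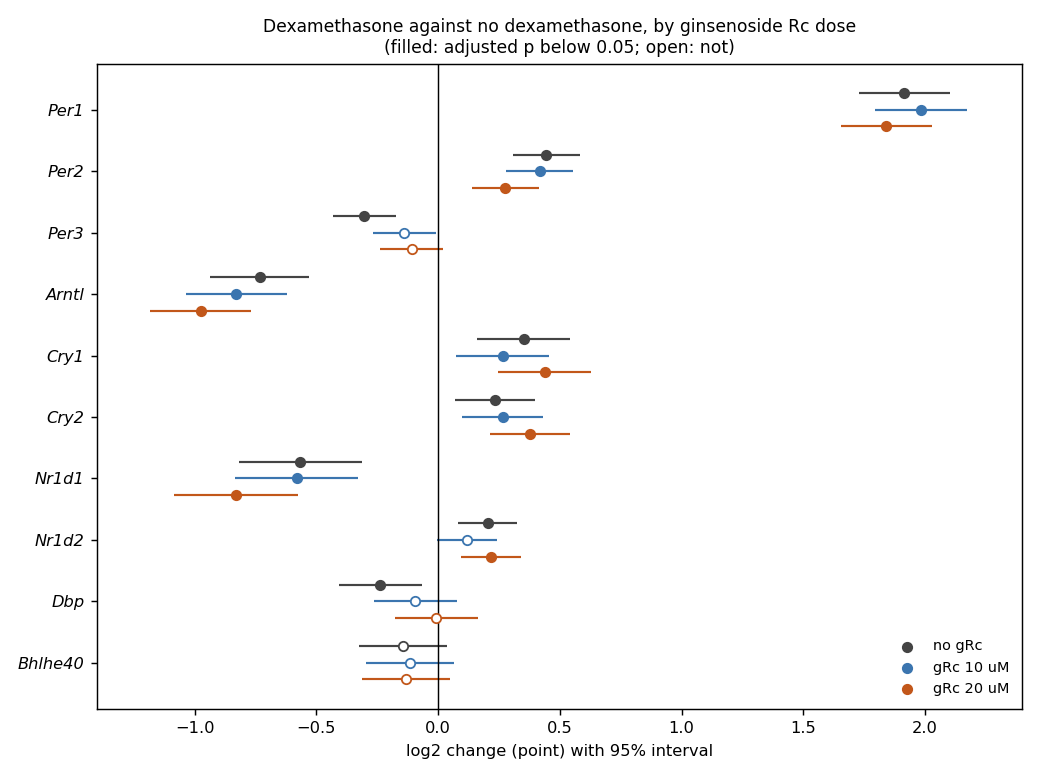
Log2 change of each clock gene with dexamethasone against separate libraries without it, with no ginsenoside Rc, 10 µM or 20 µM. Lines are 95% intervals and filled points passed the test. Per1 lies near 1.9 at every dose, Arntl and Nr1d1 lie below 0 at every dose, and Bhlhe40 is open at every dose.

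Ginsenoside Rc alone gave no called change in any clock gene. At 10 µM against vehicle the differences ran from -0.06 (Arntl) to 0.07 (Nr1d2), 0 of the 10 were called by edgeR or by DESeq2, and 0 had an unadjusted p below 0.05. Of all genes, 0.00648% were called, which is 1 gene. No clock gene had libraries outside the vehicle range, against 12.1% of all genes. The 95% intervals show what the fit could resolve: for Per1 the interval was -0.21 to 0.17 and for Arntl -0.26 to 0.14. Their width rests on a spread estimated over all 6 groups, including the library that stands apart, which is in neither group compared here.

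At 20 µM the differences ran from -0.15 (Dbp, interval -0.32 to 0.02) to 0.22 (Nr1d1, interval -0.03 to 0.47). Again 0 of the 10 were called by either tool, and 0 had an unadjusted p below 0.05, against 0.104% of all genes called. All 3 libraries of Cry2 and of Dbp lay below the vehicle range, 2 of the 10 genes against 11.7% of all genes. The Nr1d1 value rested on the library that stands apart, and without it the difference was -0.02. Without that library Per1 differed by -0.03 in place of 0.12 and Arntl by -0.12 in place of 0.04. Cry2 then differed by -0.04 in place of -0.10 and Dbp by -0.09 in place of -0.15.

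**Figure D4:**
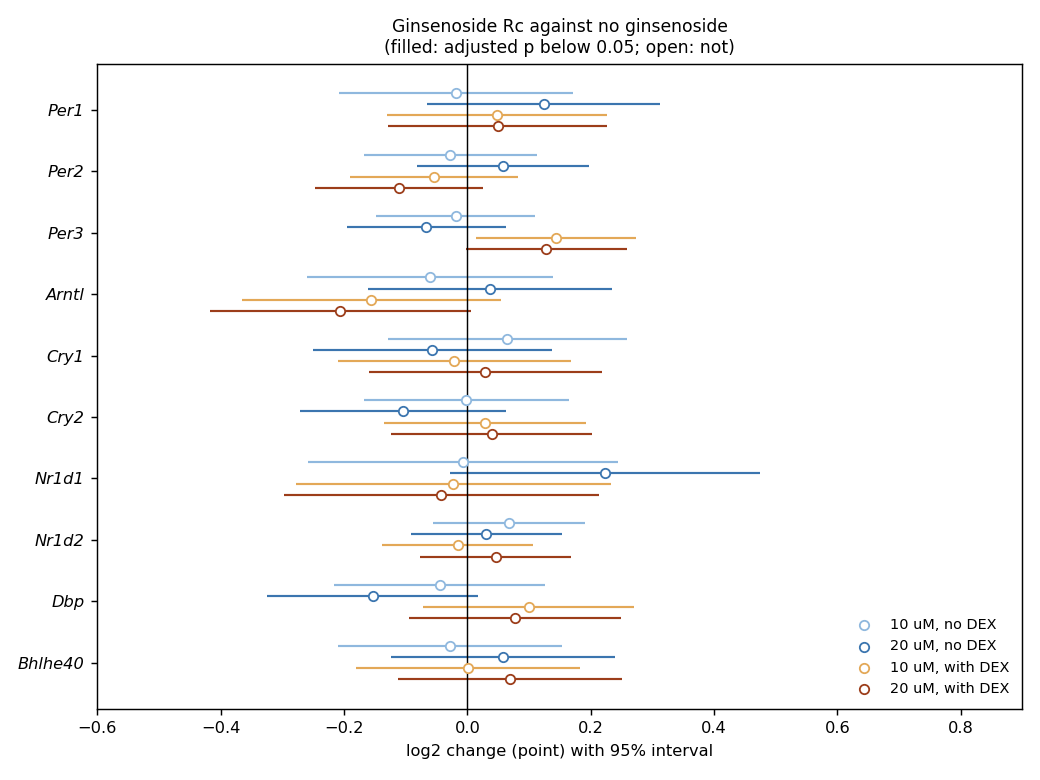
Log2 change of each clock gene with ginsenoside Rc against none, at 10 µM and 20 µM, without and with dexamethasone; lines are 95% intervals and open points did not pass the test. All 40 points are open and lie between -0.21 and 0.22.

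Pre-treatment with ginsenoside Rc before dexamethasone was compared with dexamethasone alone, the comparison that asks whether the glucocorticoid state of the clock genes was altered. At 10 µM 0 of the 10 were called by either tool, against 0.0259% of all genes, and the differences ran from -0.16 (Arntl) to 0.14 (Per3). Per3 had the only unadjusted p below 0.05 among the 10 (log2 difference 0.14 ± 0.06, adjusted p = 1.0), and its libraries read 18.4, 17.9 and 18.1 CPM with dexamethasone alone and 20.4, 20.4 and 19.3 after 10 µM. Per1 and Per3 were the 2 genes whose libraries lay above the range of dexamethasone alone, against 10.8% of all genes outside that range in either direction. For Per1 the gap was small, with 115 to 120.1 and 120.1 to 124 CPM.

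At 20 µM 0 of the 10 were called by either tool, and 0 had an unadjusted p below 0.05, against 0.369% of all genes called. Arntl had the largest difference, -0.21 ± 0.10 (95% interval -0.42 to 0.01, adjusted p = 0.59). Its 3 libraries, 9.30, 9.63 and 10.2 CPM, lay below the 3 with dexamethasone alone, 10.4, 11.7 and 11.5, the only 1 of the 10 genes not to overlap, against 14.9% of all genes. Per3 differed by 0.13 ± 0.06 (adjusted p = 0.58) and Per2 by -0.11 ± 0.06 (adjusted p = 0.73). Both pre-treatment comparisons share the libraries of dexamethasone alone.

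The interaction, the difference between the response to dexamethasone with and without ginsenoside Rc, was called for 0 of the 10 genes and for 0% of all genes at both doses by edgeR, with 327 genes at 10 µM and 815 at 20 µM under an unadjusted p of 0.05. DESeq2 called 0 of the 10, and 0 and 1 of all genes. At 10 µM it ran from -0.10 (Arntl) to 0.16 (Per3), with 0 unadjusted p below 0.05. At 20 µM it ran from -0.27 (Nr1d1) to 0.23 (Dbp), and Per3 had the only unadjusted p below 0.05 (0.19, adjusted p = 0.88). Without the library that stands apart the values at 20 µM were -0.02 for Nr1d1, 0.17 for Dbp and 0.16 for Per3. So the calls that Per3, Nr1d2 and Dbp passed at one dose and missed at another are not shown to differ between doses. The Per1 interaction at 20 µM was -0.07 (95% interval -0.33 to 0.19) with that library and 0.08 without it, on the other side of 0. That of Arntl was -0.24 (95% interval -0.53 to 0.05) with it and -0.09 without it.

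Other genes of the clock were followed in 4 lists with 34 genes, all tested. Against vehicle, dexamethasone raised 11 and lowered 4 of them, with a median log2 change of 0.02, where 20.6% and 23.2% of all genes were called and the median was -0.01. Of 10 partners of the loop 6 rose and 0 fell, with a median of 0.34. The largest was Hlf, a D-box activator like DBP, at 2.50 ± 0.36 (adjusted p = 1.4e-05), from a level of only 0.155 to 0.228 CPM to 0.892 to 1.60. Nfil3, the repressor that competes with DBP at D-boxes, rose by 0.80 (adjusted p = 4.0e-09), and Tef, the third D-box activator, by 0.43 (adjusted p = 3.7e-06). Dbp itself did not rise with them: its change was -0.24 (adjusted p = 0.024), a call that was lost without some single libraries. Rora, an activator of Arntl, rose by 0.51 (adjusted p = 1.5e-04) while Arntl fell. Npas2, a stand-in for CLOCK, rose by 0.48 (adjusted p = 0.011) and Cipc, an inhibitor of CLOCK, by 0.25 (adjusted p = 7.7e-05). The Npas2 level was low and its libraries overlapped, at 1.36 to 1.65 CPM with vehicle and 1.63 to 2.34 with dexamethasone. Clock, the partner of Arntl, differed by 0.01 ± 0.09 (95% interval -0.17 to 0.18, adjusted p = 0.97), and Bhlhe41, Ciart and Rorb were not called.

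Of 9 kinases and ubiquitin enzymes that set the stability of PER and CRY proteins 1 rose and 1 fell. For this list and the inputs and outputs below, the share of all genes called against vehicle was 43.8%. Usp2, a deubiquitinase of clock proteins, rose by 1.37 ± 0.08 (adjusted p = 2.2e-10). Csnk1a1 fell by 0.11 (adjusted p = 0.037), and the casein kinases Csnk1d and Csnk1e, which phosphorylate PER proteins, differed by -0.02 and -0.02 and were not called. Of 9 inputs 1 rose and 1 fell: Sik1, which restrains CREB coactivators, at 0.77 (adjusted p = 9.8e-08) and the immediate early gene Egr1 at -0.41 (adjusted p = 0.018). The glucocorticoid receptor Nr3c1 differed by -0.07 (adjusted p = 0.23). Of 6 genes listed as outputs 3 rose and 2 fell (adjusted p from 5.4e-11 to 0.041). Wee1, a kinase that holds back mitosis, rose by 1.40 and Nampt, the enzyme of NAD salvage, by 0.99. Por, the reductase of cytochrome P450 enzymes, rose by 0.53, while Timeless was at -0.93 and Noct at -0.22. Timeless was listed by name, and whether it acts as a clock output in these cells was not tested. With 10 µM ginsenoside Rc dexamethasone raised 12 and lowered 5 of the 34, and with 20 µM again 12 and 5, against 44.2% and 48.9% of all genes called. Nr3c1 was then among those lowered, by -0.21 and -0.14 (adjusted p = 9.2e-04 and 0.018). Its group means with dexamethasone were close, 95.6 CPM alone, 93.7 with 10 µM and 93.7 with 20 µM. Those without dexamethasone were 100.4 CPM with vehicle, 108.6 at 10 µM and 103.3 at 20 µM. In the 4 comparisons of ginsenoside Rc with none, and in both interactions, 0 of the 34 were called by edgeR, with 1 or 2 at an unadjusted p below 0.05 in each.

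**Figure D5:**
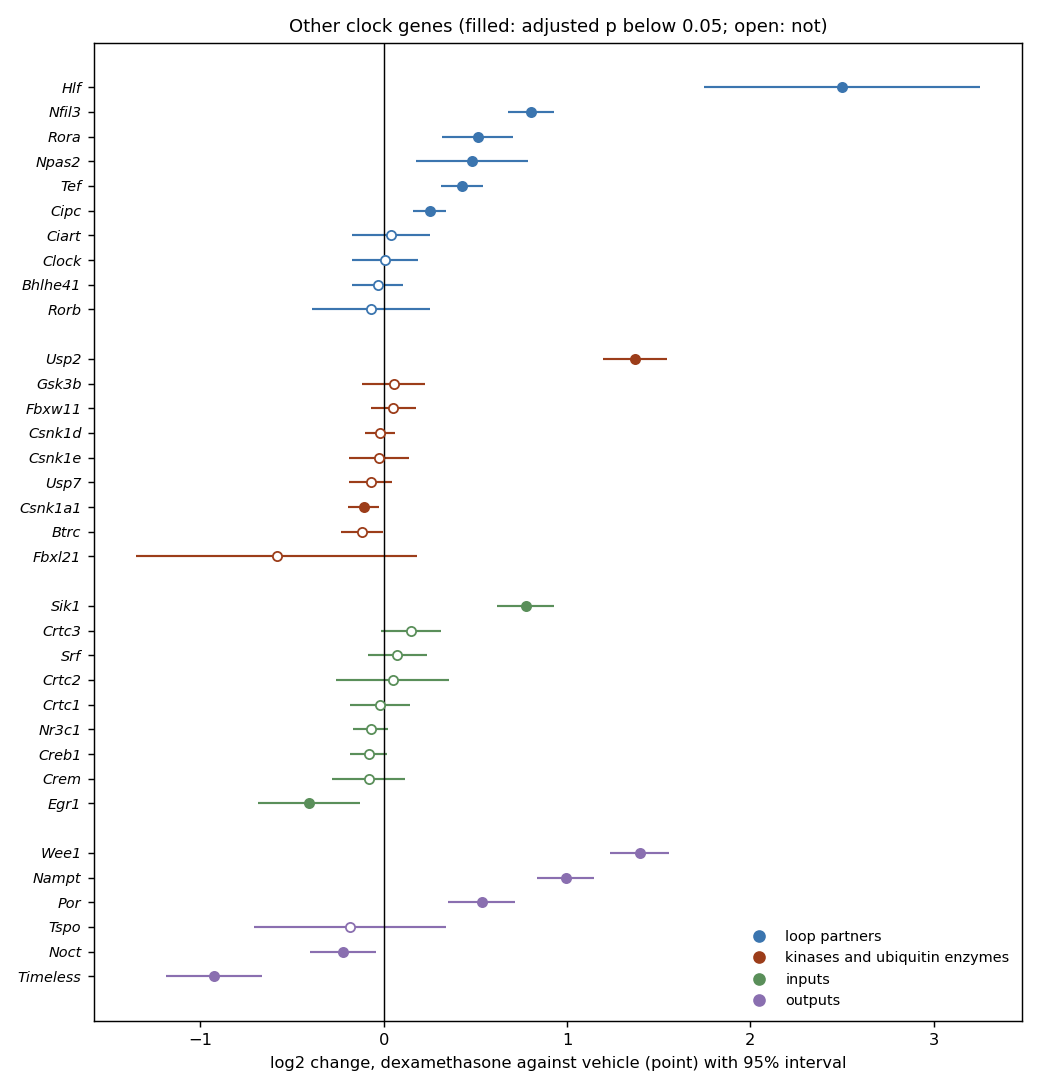
Log2 change with dexamethasone against vehicle for the 34 other clock genes, by list; lines are 95% intervals and filled points passed the test. Hlf, at 2.50, lies farthest right, Usp2 and Wee1 lie near 1.4, Clock lies at 0.01, and Timeless is the lowest filled point at -0.93.

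Genes whose levels followed each clock gene most closely over the 18 libraries were found by Pearson's r of log2 CPM among 11673 other genes. The r values are a description with no test, since the libraries share 1 large split by dexamethasone and are not independent points. The library that stands apart is among the 18, and r was not computed without it. Bhlhe40 read 318 CPM in it, against 242 to 274 in the other libraries without dexamethasone, and Nr1d1 119 against 73.8 to 78.1. For Per1 they were Ehd3 (r = 0.998) and Selenop (r = 0.997), for Arntl Ptbp1 (r = 0.991), and for Nr1d1 S100pbp (r = 0.988) and Prkca (r = 0.986). For Per2 they were Svil (r = 0.968) and Chd7 (r = 0.965), for Cry1 Dnajc16 (r = 0.974) and Itgb5 (r = 0.971), and for Cry2 Mau2 (r = 0.966) and Mms19 (r = 0.965). The closest matches were looser for Nr1d2, C1galt1 (r = 0.950) and Zfyve9 (r = 0.950), for Bhlhe40, Ppp2r5c (r = 0.923) and Ift46 (r = 0.922), and for Per3, Kbtbd12 (r = 0.904) and Slc40a1 (r = 0.898). They were loosest for Dbp, Cd9 (r = 0.859) and Btg1 (r = 0.844).

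The cells carried the markers of myotubes in every group, and markers of dividing myoblasts moved with dexamethasone. The summed level of 6 myotube markers was 16085 to 18635 CPM over all libraries, and against vehicle 4 of them rose with dexamethasone and 1, Myh3, fell. That of 5 myoblast and proliferation markers was 184 to 189 CPM with vehicle and 83.8 to 87.0 with dexamethasone. Mki67, Top2a and Ccnb2, genes of dividing cells, changed by log2 -3.41, -3.05 and -3.07, Pax7 by -0.95 and Myf5 by 1.14, so 4 of the 5 fell and 1 rose. The part of these markers in the changes of the clock genes was not tested. The 6 markers of leucocytes, endothelium, epithelium and adipocytes summed to 0.786 to 1.55 CPM in all libraries, and 2 of them were tested. Cd68, a macrophage marker, was higher with dexamethasone than with vehicle, by 0.59 (adjusted p = 0.044), and at 10 µM by 0.87 (adjusted p = 0.0039), while at 20 µM the difference was 0.52 (adjusted p = 0.058). Cdh5, an endothelial marker, was lower at 10 µM and 20 µM, by log2 -1.51 and -2.29 (adjusted p = 0.037 and 0.0021). The part of these markers was not tested either. Ptprc, the general leucocyte marker, was at 0 in all 9 libraries with dexamethasone and at most at 0.0533 CPM in those without. The highest reading of any of the 6 was 1.39 CPM.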

How the data were processed

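The authors deposited 1 table of expected counts per Ensembl gene, estimated numbers of fragments that need not be whole (9.27% of values were not), for 18 directional libraries read as 100 bp pairs (per the labels' protocols). Named in the submitters' processing notes are RSEM 1.3.3, STAR 2.7.3a, Trim Galore 0.6.5, FastQC 0.11.9 and GRCm38. Which annotation, filters and strand setting were used is not given in the sources used here. Symbols, coordinates and exon lengths came from GENCODE mouse release 21 (GRCm38), which named 48435 of 48795 identifiers; the other 360 held 0.018% of counts.

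Expected counts were rounded. filterByExpr kept 15436 of 27028 genes with any count, TMM scaled the libraries, and 1 model with a mean per group was fitted with edgeR 4.0.16 in R 4.3.3 (robust quasi-likelihood, glmQLFTest, Benjamini-Hochberg over all genes tested, threshold 0.05). A standard error is the log2 change over the square root of F; CPM are TMM scaled with SD over 3 libraries. The 9 comparisons were dexamethasone against none at each of 3 ginsenoside doses, each dose against none without and with dexamethasone, and 2 interactions. Deviations of samples with the same replicate number were weakly correlated (-0.196 to 0.15), which does not exclude structure shared by replicate number. On the second principal component replicate 3 was the lowest of its group, except at 20 µM alone, where replicate 2 stood apart. Replicates differed by more than sampling noise (chi-square per degree of freedom 5.24 to 89.2). The fit was tested on simulated counts. Alternatives were DESeq2 1.42.0, a model of only the groups compared, a replicate block, no low-count filter, no composition scaling, median-ratio size factors, leaving out each library and, added after seeing the data, a fit lacking the library that stands apart. The naming rule took all 10 clock genes in every comparison, any gene of the other lists in dexamethasone against vehicle, and called ones elsewhere. The 2 genes most like each clock gene, with a mean log2 CPM of at least 1 (prior count 2), are named, except 1 of Arntl; it and 2 genes of the other lists are not reported here. Genes that overlap clock genes are named for that reason. Members and lists were chosen with earlier results of these data known.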

Additional observations from a re-analysis of the deposited data

How the results depend on the processing

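No clock gene reversed a called direction under any alternative. Of 1260 values of single genes under an alternative, 1235 kept their side of the threshold, 17 lost a call and 8 gained one; all 25 were in comparisons of dexamethasone with none and are named with their genes above, and the cause was not tested. The count of clock genes called with dexamethasone against vehicle was 9, with 8 to 10 in other fits and 7 to 9 without 1 library each. At 10 µM it was 6, with 5 (no composition scaling) to 9 (only the groups compared) in other fits and 4 to 6 without 1 library each. At 20 µM it was 7, with 6 to 7 in other fits and 7 to 8 without 1 library each. It was 0 in the other 6 comparisons under every alternative. Without composition scaling the counts of all genes called with dexamethasone against vehicle were 2368 higher and 4392 lower, in place of 3176 and 3578.

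With the replicate number as a block the clock genes called were 9, 6 and 7 at 0, 10 and 20 µM, as without the block. The block changed no call of a single clock gene.

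Counts over all genes were less stable where few passed. For 10 µM against vehicle the count was 1, with 1 to 8 in other fits and 0 without any 1 library. For 20 µM it was 16, with 0 (only the groups compared) to 101 (DESeq2), 5 to 44 without 1 library each and 44 without replicate 2. After pre-treatment it was 4 at 10 µM (1 to 16, and 0 to 1 without 1 library) and 57 at 20 µM, with 61 to 341 in other fits, the highest in the fit lacking the library that stands apart, and 6 to 224 without 1 library. The interaction at 20 µM had 0 genes, with up to 1 in other fits and 2 without replicate 2 of 20 µM. With 3 libraries per group, precision is limited to the 95% intervals given.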
